A study of Mus musculus with 12 samples.

Results

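The 8 genes described here encode inhibitory receptors of T cells or, for Cd200, the ligand of one: Pdcd1, Ctla4, Lag3, Havcr2, Tigit, Cd160, Btla and Cd200. They were chosen by symbol, with earlier results of these data known, and all 8 were found among the 55536 annotated genes of the count table. The expression data were RNA-seq libraries of OT-I CD8+ T cells, which carry a transgenic T cell receptor for SIINFEKL, a peptide of ovalbumin, on the OT-1 Tg C57BL/6J strain. The study asked what costimulation adds to antigen in these cells.

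The Naive group held 2 libraries of OT-I cells taken from mice that had received no transfer and no stimulation. The Ag group held 5 libraries of OT-I cells transferred into C57BL/6J recipients, at 500000 cells each, and stimulated with 100 µg of SIINFEKL and a control rat IgG. The Ag+Costim group held 5 libraries of cells transferred in the same way and stimulated with SIINFEKL and agonist antibodies to CD134 (OX40) and CD137 (4-1BB), which are costimulatory receptors of the TNF receptor family. The methods give 3 days and 12 h from stimulation to the sort, whereas the labels give 4 days to harvest. The methods also describe the OT-I donors as deficient in Rag1 or Rag2, the recipients as wild type, and the mice of the study as at most 8 months old and of both sexes. After stimulation, cells were taken from spleen and lymph nodes and sorted as CD8+ CD45.1+ Vα2+ Vβ5+ to a purity above 95%. The methods do not describe this sort for the Naive libraries. All groups therefore share 1 transgenic receptor, and only the Ag and Ag+Costim cells passed through a wild-type host. The labels do not tie a library to an animal, so the p-values measure the spread between these libraries.

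Inhibitory receptors are induced when a T cell is activated and dampen signals from the T cell receptor and CD28. Some recruit phosphatases through tyrosine motifs of their cytoplasmic tail, others compete with a stimulatory receptor for a shared ligand, and several stay high on T cells that meet antigen for long periods. Their genes are therefore read both as marks of activation and, in chronic settings, as marks of exhaustion.

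The tail motifs divide the 8 genes and are shown for that reason. The immunoreceptor tyrosine-based inhibitory motif (ITIM) and switch motif (ITSM) were searched for in the last 100 codons of each leading coding transcript of GENCODE vM21 (mm10). Capitals mark the 6 codons of the motif.
Pdcd1 ITIM: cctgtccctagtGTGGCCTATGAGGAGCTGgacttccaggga
Pdcd1 ITSM: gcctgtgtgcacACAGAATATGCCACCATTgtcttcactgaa
Tigit ITIM: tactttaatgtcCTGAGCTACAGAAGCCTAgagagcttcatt
Btla ITIM: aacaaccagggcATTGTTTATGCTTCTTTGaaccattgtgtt
Btla ITSM: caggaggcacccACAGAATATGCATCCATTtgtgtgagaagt
The 5 stretches lie on mm10 at chr1:94039476-94039517 and chr1:94039407-94039448 on the minus strand, chr16:43649022-43649063 on the minus strand, and chr16:45250478-45250519 and chr16:45250553-45250594 on the plus strand. Pdcd1 and Btla held both motifs and Tigit held the ITIM alone. The same search found neither motif in Ctla4, Lag3, Havcr2, Cd160 or Cd200. An ITIM stood in the last 100 codons of 16.6% of 21469 coding genes and an ITSM in 1.70%, so a match is a description of the letters only.

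All 8 genes were higher in Ag than in Naive, and in Ag+Costim against Ag 3 were higher, 4 were lower and Pdcd1 was not called. Below, with antigen stands for Ag against Naive, and with costimulation for Ag+Costim against Ag. Ag also differs from Naive by the transfer, the wild-type host and the control IgG, from which antigen cannot be told apart. In Ag against Naive, all 8 were called higher, where 24.2% of the 18817 genes tested were called higher, and for all 8 every Ag library lay above both Naive libraries, as was so for 27.2% of genes. In Ag+Costim against Ag, Havcr2, Lag3 and Tigit rose, Cd200, Ctla4, Btla and Cd160 fell, and Pdcd1 was not called. These were 3 genes called higher and 4 called lower, where 26.6% and 26.5% of the genes tested were called, and 53.1% in either direction. The same 3 genes lay above and the same 4 below in every library, as was so for 21.3% and 18.5% of genes. In Ag+Costim against Naive, 7 genes were called higher, where 26.9% of genes were, and Btla was not called. The same 7 lay above in every library, as did 31.7% of genes. The median log2 fold change of the 8 genes was 4.38 in Ag against Naive, -0.19 in Ag+Costim against Ag and 4.71 in Ag+Costim against Naive, beside 0.02, -0.05 and -0.02 over all genes tested. All calls are from edgeR's quasi-likelihood test at a Benjamini-Hochberg adjusted p below 0.05. The Naive libraries serve in 2 of the 3 comparisons and the Ag libraries in 2, so the comparisons are not independent. In sorted bulk cells, fewer cells that express a gene and less RNA per cell cannot be told apart.

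**Figure D1:**
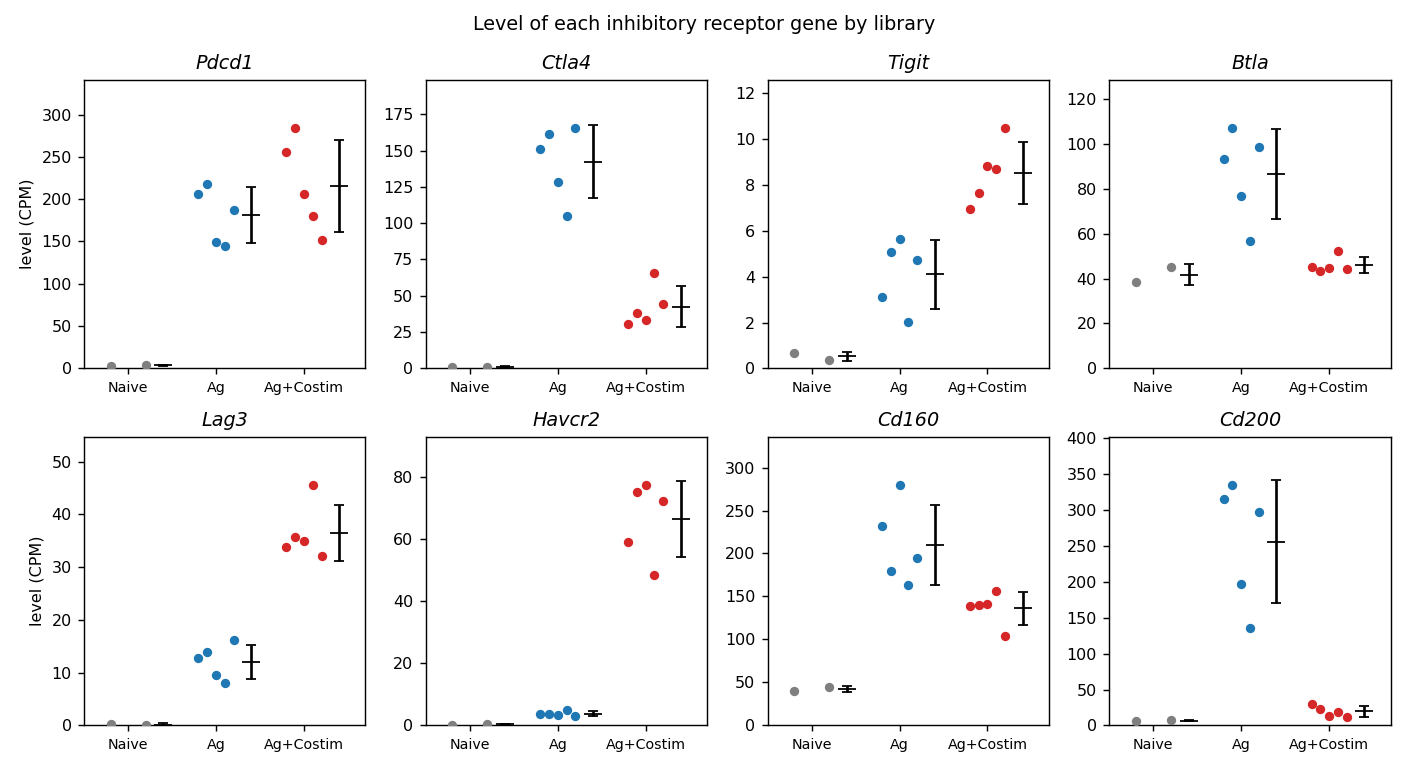
Level of each gene in CPM, counts scaled to library size, on linear axes that start at 0. Points are libraries (2 Naive, 5 Ag, 5 Ag+Costim), and the bar beside each group is the mean ± SD. Havcr2, Lag3 and Tigit stand highest in Ag+Costim, Cd200, Ctla4, Btla and Cd160 stand highest in Ag, and the Ag and Ag+Costim libraries of Pdcd1 overlap.

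Total counts ran from 24006053 in Ag 4 to 49294934, so that 3 counts equalled 0.0609 to 0.125 CPM. The sequencing core's sheet lists an input amount of 0 for the Ag libraries, 10 for the Ag+Costim libraries and 8.5 and 10.7 for the Naive libraries, without a unit. In both comparisons with Ag, input and group therefore cannot be told apart. The 8 CD8 T cell markers summed to 12882 to 13591 CPM in Naive, 10442 to 13332 CPM in Ag and 5562 to 7673 CPM in Ag+Costim. The 4 markers of CD4 and regulatory T cells summed to 4.53 and 5.11 CPM in Naive, 6.05 to 7.86 CPM in Ag and 3.77 to 8.75 CPM in Ag+Costim. Of these, Cd4 did not exceed 2.39 CPM, Foxp3 0.786 CPM, Ikzf4 3.64 CPM and Zbtb7b 5.41 CPM in any library. The 6 proliferation markers summed to 149 CPM in both Naive libraries, 592 to 1187 CPM in Ag and 2180 to 2768 CPM in Ag+Costim. The 6 erythroid markers summed to 168 to 2314 CPM, 588 to 6726 CPM and 14.0 to 211 CPM in the same order. The part of these in the results below was not tested. Of the genes called in Ag+Costim against Ag, 50.1% were higher, and 39.0% were with upper-quartile scaling, which moved the median of all genes to -0.24. In the other 2 comparisons the share was 51.9% and 51.5%, and 38.3% and 37.2% on the log2(FPKM + 1) scale.

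Ag 4 was the lowest Ag library for 7 of the 8 genes and the highest for Havcr2. It also had the highest sum of erythroid markers, 6726 CPM, of NK cell markers, 169 CPM, of which 146 CPM were of Gzma, a gene of cytotoxic T cells too, of myeloid markers, 182 CPM, and of proliferation markers, 1187 CPM, in its group. Myeloid cells also express Havcr2, and the part of these in the values was not tested. Without Ag 4, the same 7 genes were called in Ag+Costim against Ag, with log2 fold changes of 4.26 for Havcr2, 1.47 for Lag3, 0.88 for Tigit, -0.70 for Cd160, -1.03 for Btla, -1.84 for Ctla4 and -3.87 for Cd200.

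Pdcd1 encodes PD-1, a receptor whose ITIM and ITSM recruit the phosphatase SHP-2 when it binds PD-L1 or PD-L2. It was at 3.25 and 3.63 CPM in the Naive libraries. The Ag libraries held 206, 218, 149, 144 and 187 CPM, and the Ag+Costim libraries held 255, 284, 206, 180 and 152 CPM. Both stimulated groups lay far above Naive and overlapped each other, with 3 of the 5 Ag+Costim libraries inside the Ag range. Pdcd1 was 52.5-fold higher in Ag than in Naive (log2 fold change 5.71 ± 0.32 SE, adjusted p = 5.80e-08). Ag+Costim stood 62.5-fold above Naive (5.97 ± 0.32, adjusted p = 1.57e-08). Between Ag+Costim and Ag the log2 fold change was 0.25 ± 0.17 with a 95% interval of -0.11 to 0.62 (adjusted p = 0.227). A p above the threshold does not show that the groups were alike.

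Tigit encodes a receptor for PVR (CD155) and nectins that competes with the stimulatory receptor CD226. The Naive libraries held 0.659 and 0.378 CPM, which were 32 and 18 counts. In the 5 Ag libraries it was at 3.09, 5.06, 5.66, 2.02 and 4.71 CPM, and in Ag+Costim at 6.95, 7.67, 8.83, 8.68 and 10.5 CPM. The 3 groups did not overlap. Tigit rose 7.91-fold with antigen (log2 fold change 2.98 ± 0.42, adjusted p = 7.22e-05). With costimulation it rose a further 2.07-fold (1.05 ± 0.26, adjusted p = 0.00374).

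Btla encodes a receptor for HVEM, the product of Tnfrsf14, and carries an ITIM and an ITSM. It was already expressed in Naive cells, at 38.6 and 45.0 CPM. The Ag libraries were at 93.2, 107, 76.9, 56.6 and 98.6 CPM, and the Ag+Costim libraries at 45.3, 43.6, 44.7, 52.4 and 44.4 CPM. Every Ag library was above all others, whereas the Ag+Costim and Naive libraries overlapped. Btla was 2.07-fold higher with antigen (log2 fold change 1.05 ± 0.20, adjusted p = 0.00083) and 1.88-fold lower with costimulation (-0.91 ± 0.15, adjusted p = 0.000133). Ag+Costim against Naive gave 0.14 ± 0.19 with a 95% interval of -0.27 to 0.56 (adjusted p = 0.558), and the sign of this value turned with upper-quartile scaling and on the FPKM scale.

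B cells also express Btla and Cd200. The 7 B cell markers summed to 31.4 and 35.0 CPM in Naive, 123 to 184 CPM in Ag and 42.6 to 87.5 CPM in Ag+Costim. All 7 were called higher in Ag than in Naive, and in Ag+Costim against Ag 4 were called lower and 1 higher. The 1 called higher was Cd22, at 14.4 to 21.2 CPM in Ag and 18.8 to 33.3 CPM in Ag+Costim. Like the sum of these markers, Btla and Cd200 were highest in Ag, as were Ctla4 and Cd160. The part of B cells in the result was not tested.

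Ctla4 encodes a receptor that takes CD80 and CD86 away from CD28. The Naive libraries held 0.782 and 1.24 CPM, which were 38 and 59 counts. With antigen alone it reached 151, 162, 129, 105 and 166 CPM, and in Ag+Costim 30.5, 37.8, 33.4, 66.0 and 44.3 CPM. The 3 groups did not overlap, and Ag was the highest. Ctla4 was a fitted 141-fold higher in Ag than in Naive (log2 fold change 7.14 ± 0.42, adjusted p = 7.38e-08). It was 3.36-fold lower in Ag+Costim than in Ag (-1.75 ± 0.21, adjusted p = 8.93e-06) and still 41.9-fold above Naive (5.39 ± 0.39, adjusted p = 1.46e-07). The pseudogene Rpl18-ps1 overlaps the annotated span of Ctla4 on the same strand, and held 2250 and 1900 counts in the Naive libraries.

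Lag3 encodes a receptor for MHC class II that resembles CD4. Naive 1 held 17 counts (0.350 CPM) and Naive 2 none. The Ag libraries held 12.8, 13.9, 9.62, 8.11 and 16.1 CPM, and the Ag+Costim libraries 33.7, 35.7, 34.9, 45.6 and 32.2 CPM. The 3 groups did not overlap and ascended from Naive to Ag to Ag+Costim. Ag against Naive gave 6.08 ± 0.61 on the log2 scale for Lag3 (adjusted p = 4.53e-06), a value that rests on those few Naive counts. It was 5.10 without Naive 2 and 11.997 without Naive 1, where the remaining Naive library held no counts and the fitted value depends on the prior count. The Ag mean was at least 192-fold above the floor of 3 counts in Naive 2 alone. The fit over both Naive libraries gave 67.7-fold for Lag3. Costimulation raised it a further 3.00-fold (1.59 ± 0.29, adjusted p = 0.000427). Ag+Costim stood 7.67 ± 0.64 above Naive on the log2 scale (adjusted p = 5.63e-07), 6.68 without Naive 2 and 13.58, with the same limit, without Naive 1. The Ag+Costim mean was at least 578-fold above the floor of Naive 2 alone, and 203-fold above Naive by the fit over both Naive libraries.

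Havcr2 encodes TIM-3, a receptor for galectin-9, phosphatidylserine and CEACAM1. The Naive libraries held 0.123 and 0.546 CPM, which were 6 and 26 counts. Ag libraries 1 to 5 held 3.55, 3.80, 3.42, 5.14 and 3.08 CPM. The Ag+Costim libraries held 59.2, 75.1, 77.5, 48.5 and 72.4 CPM. The groups did not overlap, and the lowest Ag+Costim library was above the highest Ag library by a wide margin. Havcr2 rose 11.2-fold with antigen (log2 fold change 3.49 ± 0.41, adjusted p = 1.49e-05), with 2.78 without Naive 1 and 4.90 without Naive 2. Costimulation raised it a further 17.6-fold (4.14 ± 0.24, adjusted p = 2.77e-08), and only 2.88% of the genes tested had a log2 fold change at least as large in size. Against Naive the rise was 7.63 ± 0.46 on the log2 scale (adjusted p = 3.15e-08), with 6.91 without Naive 1 and 9.03 without Naive 2.

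Cd160 encodes a receptor for HVEM that is held in the membrane by a lipid anchor and is found on cytotoxic T cells and NK cells. It was at 39.7 and 44.8 CPM in Naive. In Ag it was at 231, 180, 280, 163 and 195 CPM, and in Ag+Costim at 139, 140, 142, 156 and 104 CPM. The Ag libraries lay above the Ag+Costim libraries by a narrow margin, and both lay above Naive. Cd160 rose 4.97-fold with antigen (log2 fold change 2.31 ± 0.22, adjusted p = 2.74e-06), was 1.54-fold lower with costimulation (-0.62 ± 0.15, adjusted p = 0.00253), and was 3.22-fold above Naive in Ag+Costim (1.69 ± 0.21, adjusted p = 2.04e-05). Pdzk1 overlaps Cd160 on the opposite strand, and the library kit does not mark strand. Pdzk1 had 0 to 38 counts a library.

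Cd200 encodes a membrane glycoprotein that is the ligand of the inhibitory receptor CD200R1 and is present on activated T cells, B cells and neurons. The Naive libraries held 6.28 and 7.03 CPM. The Ag libraries held 316, 335, 197, 136 and 298 CPM, and the Ag+Costim libraries 30.0, 23.4, 13.5, 19.4 and 11.9 CPM. The 3 groups did not overlap. Cd200 was 38.5-fold higher in Ag than in Naive (log2 fold change 5.27 ± 0.49, adjusted p = 2.46e-06). It was 13.0-fold lower in Ag+Costim than in Ag (-3.71 ± 0.30, adjusted p = 3.51e-07), the largest decrease of the 8 genes in that comparison. Against Naive it was 2.95-fold higher (1.56 ± 0.40, adjusted p = 0.00517), a call that was lost without Naive 1 (1.47, adjusted p = 0.0526) and on the log2(FPKM + 1) scale (0.73, adjusted p = 0.0771, limma).

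**Figure D2:**
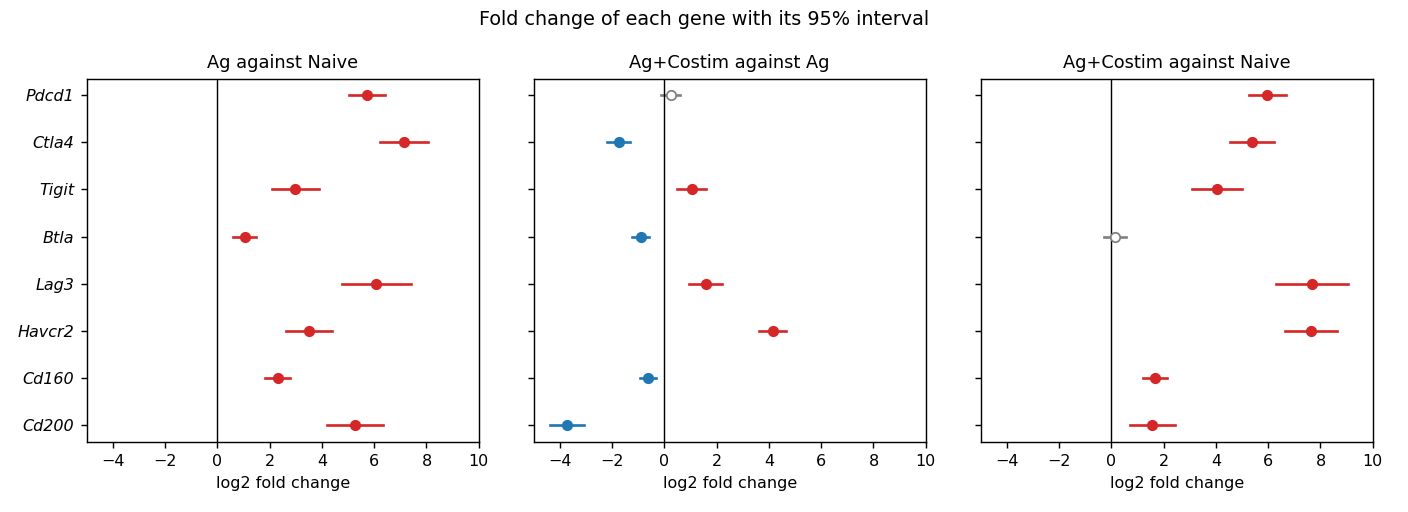
Log2 fold change of each gene in the 3 comparisons, with bars for the 95% interval. Filled points passed the test (red higher, blue lower) and open points did not. All 8 points lie above 0 in Ag against Naive, whereas in Ag+Costim against Ag they run from -3.71 for Cd200 to 4.14 for Havcr2.

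The ratio between a gene that rose and one that fell does not depend on library scaling. Havcr2 had 0.0186 to 0.0489 counts per Ctla4 count in the Ag libraries and 0.735 to 2.32 in the Ag+Costim libraries, a pair chosen after the values were seen. Lag3 had 0.0405 to 0.0597 counts per Cd200 count in Ag and 1.13 to 2.70 in Ag+Costim, a pair chosen in the same way.

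The order of the 8 genes is given per length, as the FPKM of coding transcripts. In Naive cells Cd160 (34.9 ± 2.45, SD, n = 2) and Btla (15.0 ± 1.98) were the highest, followed by Cd200 (2.51 ± 0.236) and Pdcd1 (1.96 ± 0.170), and none of these neighbours overlapped. Tigit and Ctla4 overlapped at means of 0.614 and 0.572 FPKM, as did Havcr2 and Lag3 at 0.129 and 0.0954 FPKM. Together the 8 genes summed to 55.8 ± 4.78 FPKM, of which Cd160 and Btla held 62.5% and 26.9%.

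In Ag cells the sum was 458 ± 66.7 FPKM (n = 5). Cd160 led at 172 ± 34.0 FPKM. Pdcd1 (92.1 ± 17.2), Cd200 (82.5 ± 26.2) and Ctla4 (71.9 ± 12.5) followed and overlapped their neighbours in that order. Btla (27.2 ± 5.95), Lag3 (5.89 ± 1.55), Tigit (4.34 ± 1.50) and Havcr2 (1.38 ± 0.342) came after them, of which Lag3 and Tigit overlapped. Havcr2 was the lowest of the 8 and held 0.301% of the sum.

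In Ag+Costim cells the sum was 306 ± 36.6 FPKM (n = 5), and the order changed below the leading pair. Cd160 (108 ± 15.9) and Pdcd1 (106 ± 27.1) overlapped and together stood apart from the rest. Havcr2 (23.3 ± 4.19), Ctla4 (20.9 ± 6.98), Lag3 (17.3 ± 2.49) and Btla (14.2 ± 1.10) overlapped each with the next. Tigit (8.82 ± 1.36) and Cd200 (7.18 ± 2.82) overlapped and were the lowest. By coding FPKM, Havcr2 thus passed from the last place in Ag to the third in Ag+Costim, and Cd200 from the third to the last. The places of Cd200 depend on this measure. Over all its transcripts Cd200 had a mean of 222 FPKM in Ag, above Cd160 at 172. In Ag+Costim it had 11.4 FPKM, above Tigit at 8.82.

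**Figure D3:**
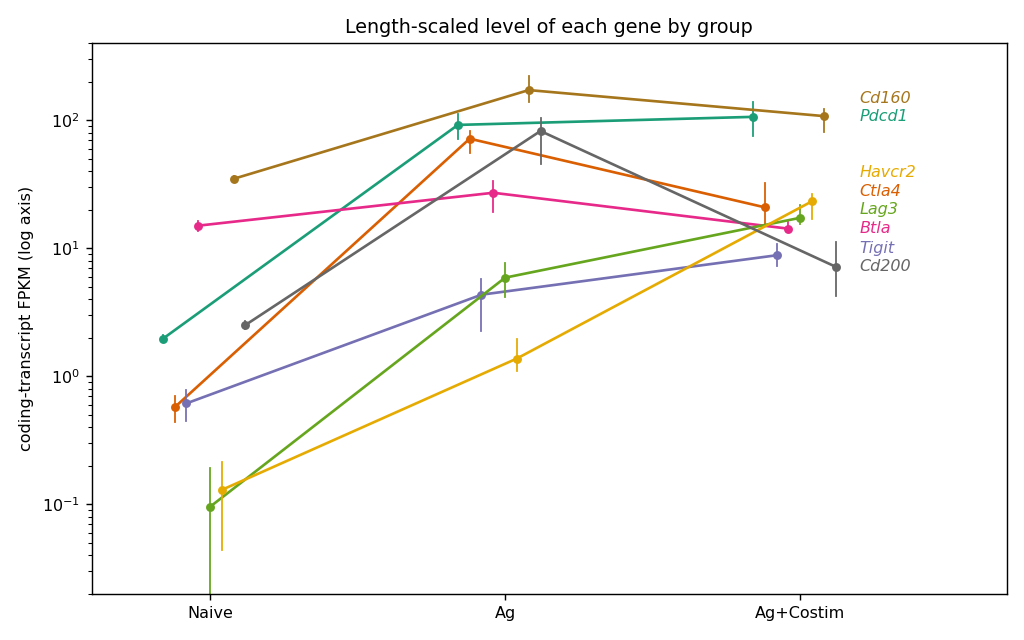
FPKM of the coding transcripts of each gene, on a log axis, by group. Points are group means joined per gene, and vertical bars run from the lowest to the highest library. The line of Lag3 starts at a mean of 0.0954 FPKM, and its bar is clipped at the lower edge because Naive 2 had no counts. Havcr2 climbs from 1.38 to 23.3 FPKM between Ag and Ag+Costim, and Cd200 falls from 82.5 to 7.18 FPKM.

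The stretch before the start of transcription is shown for 4 genes: Pdcd1 and Ctla4, which both rose with antigen and of which Ctla4 fell with costimulation while Pdcd1 was not called, and Havcr2 and Cd200, which moved the furthest in opposite directions with costimulation. RefSeq promoters (GRCm38.p6) were given for 7 of the 8 genes. The 250 bases before the start were searched on both strands for the letters GGAAA (the NFAT core), TGANTCA (AP-1), AAGGTCA (NR4A), AGGTGTGA (T-box) and TGTGGT (RUNX), and capitals mark the matches.
Pdcd1 promoter: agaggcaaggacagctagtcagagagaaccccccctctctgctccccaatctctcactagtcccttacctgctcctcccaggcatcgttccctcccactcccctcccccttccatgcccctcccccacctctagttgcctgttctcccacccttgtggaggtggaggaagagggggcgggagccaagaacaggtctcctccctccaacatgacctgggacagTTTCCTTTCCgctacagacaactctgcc
Ctla4 promoter: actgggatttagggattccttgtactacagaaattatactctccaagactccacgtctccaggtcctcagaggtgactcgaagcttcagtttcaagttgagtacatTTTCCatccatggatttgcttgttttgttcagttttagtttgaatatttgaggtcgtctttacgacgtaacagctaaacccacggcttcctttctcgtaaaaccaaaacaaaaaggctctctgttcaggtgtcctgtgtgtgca
Havcr2 promoter: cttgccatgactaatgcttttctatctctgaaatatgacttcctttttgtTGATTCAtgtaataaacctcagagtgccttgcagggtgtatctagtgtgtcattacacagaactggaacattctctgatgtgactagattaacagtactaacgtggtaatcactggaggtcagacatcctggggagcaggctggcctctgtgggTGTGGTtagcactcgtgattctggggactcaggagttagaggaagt
Cd200 promoter: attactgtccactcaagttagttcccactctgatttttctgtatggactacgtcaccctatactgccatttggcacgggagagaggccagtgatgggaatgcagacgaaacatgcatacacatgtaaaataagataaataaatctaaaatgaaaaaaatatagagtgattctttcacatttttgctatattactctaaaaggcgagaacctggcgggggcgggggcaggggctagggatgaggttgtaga
They lie at chr1:94052554-94052803 (minus strand), chr1:60908775-60909024 (plus), chr11:46454681-46454930 (plus) and chr16:45409054-45409303 (minus). Pdcd1 held 2 matches to the NFAT core and Ctla4 held 1. Havcr2 held 1 match to the AP-1 letters and 1 to the RUNX letters, and Cd200 held no match to any of the 5. Among all 32851 promoters of that table the shares with a match were 55.6% for the NFAT core, 6.75% for AP-1, 4.08% for NR4A, 1.12% for T-box and 14.0% for RUNX. A match is a description of letters, and no match says only that they are not in this window.

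The transcript table divided the counts of each gene over its annotated transcripts. Of the 26 transcripts annotated for the 8 genes, 18 were tested. In Ag against Naive 12 were called higher and 0 lower, where 16.2% of 50792 transcripts were called, in Ag+Costim against Ag 2 were higher and 7 lower, where 21.2% were called, and in Ag+Costim against Naive 8 were higher and 0 lower, where 21.8% were called. These calls are from the same edgeR test, run on transcripts. Lag3-201, with 99.0% or more of Lag3 counts in every Ag and Ag+Costim library, was not called in Ag+Costim against Ag (log2 fold change 1.65 ± 0.57, adjusted p = 0.0653). On genes, Lag3 was called higher there.

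Cd200 was the gene whose leading transcript changed its share of counts with costimulation. The coding transcript Cd200-202 held 80.0% and 80.9% of Cd200 counts in Naive. It held 78.7%, 71.7%, 82.5%, 75.4% and 78.7% in the Ag libraries and 90.0%, 92.6%, 91.4%, 86.0% and 88.0% in the Ag+Costim libraries. The groups did not overlap, and the share was 12.2 percentage points higher in Ag+Costim (77.4% ± 4.07 against 89.6% ± 2.66, SD, n = 5 each; two-sided exact permutation test, p = 0.00794, the smallest that 252 arrangements give; Benjamini-Hochberg adjusted over 5 genes, 0.0397). With shares of FPKM in place of counts the difference was 25.7 points (adjusted exact p = 0.0397). Without Ag+Costim 2 the groups still did not overlap, and the difference was 11.4 points. The adjusted exact p, which then rests on fewer arrangements, was 0.0794.

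The remaining counts of Cd200 in Ag lay mainly in short transcripts without an open reading frame, or with a premature stop, by the annotation. Cd200-210, a processed transcript of 281 bases at the 5′ end of the gene (chr16:45407194-45409018), held 883 to 1554 counts in the 4 deeper Ag libraries and 608 in Ag 4, against 22 to 54 counts in Ag+Costim. It was lower in Ag+Costim by the edgeR test on transcripts (log2 fold change -5.11 ± 0.35, adjusted p = 6.79e-06), beside -3.43 ± 0.34 for Cd200-202 (adjusted p = 5.49e-05). Cd200-204, annotated as a target of nonsense-mediated decay, held 109 to 1373 counts in Ag, 0 to 13 in Ag+Costim and none in Naive. Transcripts of 1 gene share most of their sequence, and the division of single reads of 100 bases among them is StringTie's estimate.

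The other 4 genes with more than 1 counted transcript kept their shares within 2 points between Ag and Ag+Costim. Cd160-201 held 72.9% and 68.2% of Cd160 counts in Naive, 85.8% to 91.4% in Ag and 84.6% to 88.9% in Ag+Costim, and the difference of the last pair was -1.65 points (adjusted exact permutation p = 0.357). For Btla-202 it was -0.98 points (0.476), for Ctla4-201 0.71 points (0.476) and for Lag3-201 0.37 points (0.218), by the same exact test. Pdcd1 and Tigit have 1 annotated transcript, and all Havcr2 counts lay in 1 transcript.

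**Figure D4:**
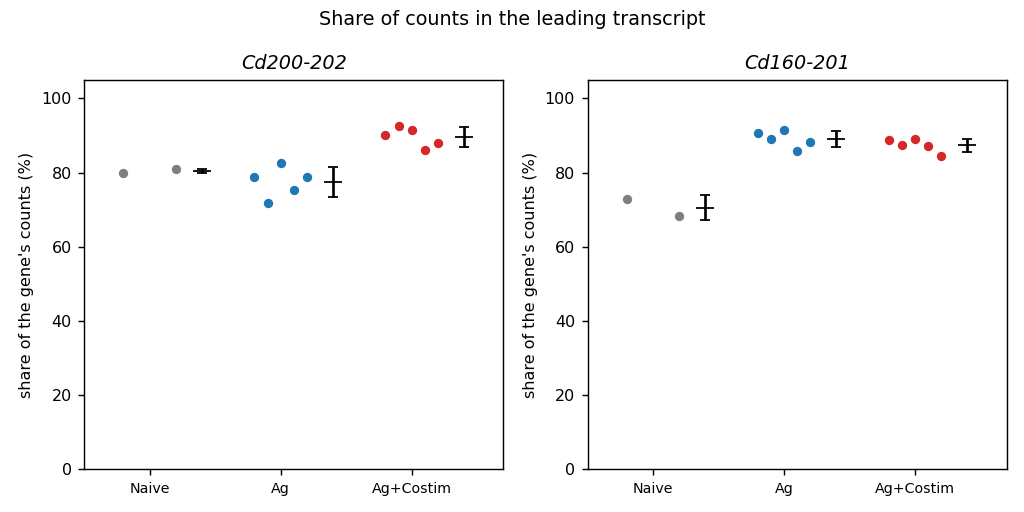
Share of a gene's counts held by its leading transcript, for Cd200 and Cd160. Points are libraries and the bar beside each group is the mean ± SD. The Ag+Costim libraries of Cd200-202 lie between 86.0% and 92.6%, above every Ag library, and the stimulated libraries of Cd160-201 lie above both Naive libraries.

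Psi, the fraction of reads at an exon or gene end that include it, was deposited by the authors as 1 value per group for Ag and Ag+Costim, so it carries no error and no test here. Over 46 nodes of the 8 genes, Ag+Costim minus Ag ran from -0.17 to 0.29. All 5 Havcr2 nodes were higher in Ag+Costim, and the 41-base exon at chr11:46466872-46466912 had the largest difference, 0.680 in Ag and 0.972 in Ag+Costim. All nodes of Lag3, Tigit and Pdcd1 were also higher in Ag+Costim, by 0.05 or less. The Ag libraries held few Havcr2 counts. For Btla, the end node of 2544 bases had a Psi of 0.701 in Ag and 0.531 in Ag+Costim. The node that adjoins it had 0.299 and 0.468 but is only 3 bases long, so these ends lie 3 bases apart. The 22-base start node of Btla had 0.284 in Ag and 0.130 in Ag+Costim, and the start node beside it had 0.717 and 0.870. The other genes moved less, with largest differences in size of 0.11 for Cd200, 0.05 for Lag3, 0.04 for Tigit, 0.03 for Ctla4, 0.013 for Cd160 and 0.00095 for Pdcd1.

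Genes that act with the 8 receptors were counted in lists by role, with the 3 largest rises and the 3 largest falls among the called genes of each list given by name. Of 14 genes for ligands and counter-receptors, 12 were tested. In Ag against Naive 9 were higher and 1 lower (median log2 fold change 1.69, beside 0.02 over all genes), where 24.2% and 22.5% of all genes were called. Cd86, a ligand of CTLA-4 and CD28, rose from a mean of 1.47 to 35.0 CPM (4.57 ± 0.45 SE, adjusted p = 3.87e-06). Lgals3, which encodes the LAG-3 ligand galectin-3, rose from 6.52 to 133 CPM (4.35 ± 0.22, adjusted p = 3.03e-08), and Pdcd1lg2, which encodes PD-L2, rose from 0.455 to 8.92 CPM (4.28 ± 0.49, adjusted p = 1.28e-05). Tnfrsf14, which encodes HVEM, the partner of BTLA and CD160, fell from 5.44 to 2.51 CPM (-1.12 ± 0.33, adjusted p = 0.0123).

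With costimulation, 3 of these 12 genes were higher and 6 lower than in Ag (median -0.46, beside -0.05 over all genes). Over all genes 26.6% were called higher and 26.5% lower. With upper-quartile scaling 2 of the list were higher and 7 lower (median -0.66), and on the log2(FPKM + 1) scale 3 and 7. Cd80, the other ligand of CTLA-4 and CD28, rose from 0.700 to 4.71 CPM (2.79 ± 0.54, adjusted p = 0.000695), whereas Cd86 fell from 35.0 to 9.39 CPM (-1.90 ± 0.26, adjusted p = 3.83e-05). Lgals3 rose from 133 to 258 CPM (0.96 ± 0.13, adjusted p = 2.34e-05) and Hmgb1, a ligand of TIM-3, from 378 to 474 CPM (0.32 ± 0.10, adjusted p = 0.0135), a call that was lost with upper-quartile scaling (0.13, adjusted p = 0.278) and on the log2(FPKM + 1) scale (0.08, adjusted p = 0.447). Cd200r1, the receptor of CD200, fell from 6.38 to 2.32 CPM (-1.46 ± 0.23, adjusted p = 0.000125), so that Cd200 and its receptor gene were both lower. Ceacam1, a further ligand of TIM-3, fell from 1.45 to 0.538 CPM (-1.43 ± 0.44, adjusted p = 0.014). B cells and myeloid cells also express Cd80 and Cd86. The 8 myeloid markers summed to 30.1 to 60.1 CPM in Naive, 63.8 to 182 CPM in Ag and 86.5 to 154 CPM in Ag+Costim, and the part of these and of the B cell markers was not tested.

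Against Naive, 7 of the 12 were higher and 1 lower in Ag+Costim (median 1.22, beside -0.02), where 26.9% and 25.4% of all genes were called. Lgals3 stood at 5.31 ± 0.23 (adjusted p = 4.13e-09) and Pdcd1lg2 at 3.94 ± 0.48 (adjusted p = 1.69e-05) on the log2 scale. Nectin2, a ligand of TIGIT, was called higher (adjusted p = 0.0376, and 0.0627 on the log2(FPKM + 1) scale) with no counts in either Naive library and a mean of 0.288 CPM in Ag+Costim, so no fold is given. Tnfrsf14 fell to 1.25 CPM (-2.12 ± 0.32, adjusted p = 0.000105).

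A list of 6 genes, of which all were tested, held Cd28, Cd226, Cd96 and Pvrig, receptors that share a ligand with one of the 8 or bind a relative of it, with Icos, a receptor of the CD28 family that has a ligand of its own, and Tnfsf14. With antigen 4 were higher and 0 lower (median 0.64), beside 24.2% and 22.5% of all genes. Tnfsf14, which encodes LIGHT, a ligand of HVEM, rose from 3.76 to 17.1 CPM (2.19 ± 0.19, adjusted p = 1.51e-06), Icos from 60.6 to 161 CPM (1.41 ± 0.19, adjusted p = 4.92e-05) and Cd28 from 190 to 334 CPM (0.82 ± 0.13, adjusted p = 0.000251). With costimulation 0 were higher and 5 lower against Ag (median -0.92), where 26.5% of genes were called lower. Cd96, a receptor for the TIGIT ligand PVR, fell from 279 to 144 CPM (-0.96 ± 0.17, adjusted p = 0.000275), Icos to 83.4 CPM (-0.95 ± 0.13, adjusted p = 4.38e-05) and Tnfsf14 to 9.27 CPM (-0.88 ± 0.13, adjusted p = 5.97e-05). Pvrig, at means under 1 CPM in all groups, was not called (-1.15, adjusted p = 0.309). Against Naive, 3 were higher in Ag+Costim (Tnfsf14, Cd28 and Icos, at 1.30, 0.54 and 0.46 on the log2 scale) and Cd96 was lower (-0.63, adjusted p = 0.0229), with a list median of 0.24, beside 26.9% and 25.4% of all genes. The 5 lower calls against Ag stood under each of the 3 other scalings, with list medians of -0.76 to -1.11. The call of Icos against Naive was lost under all 3 (adjusted p = 0.0504 to 0.368), and on the log2(FPKM + 1) scale that of Cd28 was too (0.18, adjusted p = 0.248) and the list median turned to -0.01.

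The 23 genes for signalling and trafficking partners include the phosphatases that bind the tail motifs and the proteins that carry CTLA-4 and TIM-3 through the cell. With antigen 9 were higher and 9 lower (median 0.12), and on the log2(FPKM + 1) scale 5 were higher and 9 lower (median -0.08). Over all genes 24.2% were called higher and 22.5% lower. Ppp2ca, the catalytic subunit of the phosphatase PP2A that binds the CTLA-4 tail, rose from 153 to 499 CPM (1.70 ± 0.27, adjusted p = 0.000203). Ptpn11, which encodes SHP-2, rose from 34.0 to 95.9 CPM (1.50 ± 0.15, adjusted p = 4.54e-06), and Dok2, an adaptor that restrains Ras, rose from 136 to 282 CPM (1.05 ± 0.15, adjusted p = 6.13e-05). Trat1, an adaptor that aids CTLA-4 transport, fell from 52.7 to 1.95 CPM (-4.76 ± 0.33, adjusted p = 2.35e-07). Bag6, whose product binds the tail of TIM-3, fell from 74.9 to 23.8 CPM (-1.66 ± 0.18, adjusted p = 7.33e-06), and Lrba, which keeps CTLA-4 from degradation, fell from 15.8 to 5.65 CPM (-1.49 ± 0.18, adjusted p = 2.07e-05).

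Costimulation left 12 of the 23 higher and 5 lower than in Ag (median 0.30), and 7 higher and 7 lower with upper-quartile scaling (median 0.10), beside 26.6% and 26.5% of all genes. Bag6 and Lrba, low in Ag, rose to 111 and 15.4 CPM (2.22 ± 0.15 and 1.45 ± 0.15, adjusted p = 7.89e-08 and 2.45e-06). Adam17, a protease that sheds LAG-3 and TIM-3, rose from 54.4 to 142 CPM (1.39 ± 0.10, adjusted p = 1.06e-07). Ppp2r5a, a regulatory subunit of PP2A, fell from 200 to 70.4 CPM (-1.51 ± 0.16, adjusted p = 3.98e-06), Ppp2ca to 256 CPM (-0.96 ± 0.19, adjusted p = 0.000712) and Ptpn11 to 57.2 CPM (-0.75 ± 0.11, adjusted p = 4.63e-05). Against Naive, 13 were higher and 4 lower in Ag+Costim (median 0.49), beside 26.9% and 25.4% of all genes. Sh2d1a, Adam17 and Cblb led the rises (1.11, 0.95 and 0.89) and Trat1, Pag1 and Dgka the falls (-4.33, -1.33 and -1.09), all with an adjusted p of 0.00111 or less.

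Of 17 other inhibitory receptor genes, 5 were higher and 1 lower with antigen (median 0.32), and with costimulation 5 were higher and 6 lower (median -0.11). Over all genes 24.2% and 22.5% were called in these directions with antigen and 26.6% and 26.5% with costimulation, so the shares of this list called higher in both steps, and lower with costimulation, were not far from those of all genes. Klrc1, which encodes NKG2A, an inhibitory receptor for Qa-1, rose in both steps, from 22.0 to 132 and then to 400 CPM (2.58 ± 0.21 and 1.60 ± 0.14, adjusted p = 6.46e-07 and 4.91e-07). Entpd1, which encodes the ectonucleotidase CD39, rose from 0.664 to 3.99 CPM with antigen (2.59 ± 0.47, adjusted p = 0.000523). Klrg1, a receptor of effector T cells, rose from 2.89 to 14.8 CPM with costimulation (2.38 ± 0.35, adjusted p = 7.18e-05). Lilrb4a fell from 12.7 to 6.30 CPM with antigen (-1.01 ± 0.23, adjusted p = 0.00231) and rose to 20.4 CPM with costimulation (1.70 ± 0.18, adjusted p = 3.72e-06). Cd200r1 had the third largest rise with antigen (2.51 ± 0.35, adjusted p = 6.69e-05), and Cd200r1, Ceacam1 and Cd96, which also stand in the lists above, were the 3 largest falls with costimulation. Against Naive, 8 were higher and 3 lower in Ag+Costim (median 0.73), or 5 and 4 with upper-quartile scaling (median 0.58), where 26.9% and 25.4% of all genes were called. They were led by Klrc1, Entpd1 and Lair1 (4.18, 3.14 and 1.74) and by Vsir, Cd72 and Cd96 (-1.43, -1.02 and -0.63).

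Among 22 transcriptional regulators named in work on exhausted and effector T cells, 10 were higher and 3 lower with antigen (median 0.48). With costimulation 9 were higher and 11 lower (median -0.35), beside 24.2% and 22.5% of all genes with antigen and 26.6% and 26.5% with costimulation. Nr4a2, an orphan nuclear receptor, rose from 0.395 to 13.6 CPM with antigen (5.10 ± 0.37, adjusted p = 2.92e-07). Irf4 rose from 0.970 to 7.27 and then to 25.0 CPM (2.90 ± 0.41 and 1.79 ± 0.25, adjusted p = 6.80e-05 and 4.85e-05). Prdm1, which encodes Blimp-1, rose with costimulation from 0.930 to 17.4 CPM (4.24 ± 0.27, adjusted p = 5.97e-08), and Tbx21, which encodes T-bet, from 109 to 443 CPM (2.02 ± 0.19, adjusted p = 1.09e-06). Id3 rose from 246 to 908 CPM with antigen (1.88 ± 0.24, adjusted p = 2.61e-05) and fell to 186 CPM with costimulation (-2.29 ± 0.17, adjusted p = 1.55e-07). Egr2 and Ikzf2 were the other large falls with costimulation (-2.77 ± 0.28 and -2.67 ± 0.19, adjusted p = 2.08e-06 and 1.29e-07), to 4.72 and 6.54 CPM.

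Bcl6, Bach2 and Nr4a1 fell with antigen (-2.29, -1.48 and -0.64, adjusted p = 3.38e-05, 0.00117 and 0.00928). Against Naive, 9 regulators were higher and 8 lower in Ag+Costim (median 0.36), and on the log2(FPKM + 1) scale 9 were higher and 10 lower (median -0.06), beside 26.9% and 25.4% of all genes. Irf4, Nr4a2 and Prdm1 stood the highest above Naive (4.69, 4.23 and 3.79) and Ikzf2, Bach2 and Foxo3 the furthest below (-3.01, -2.90 and -2.63), all with an adjusted p of 6.71e-06 or less.

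**Figure D5:**
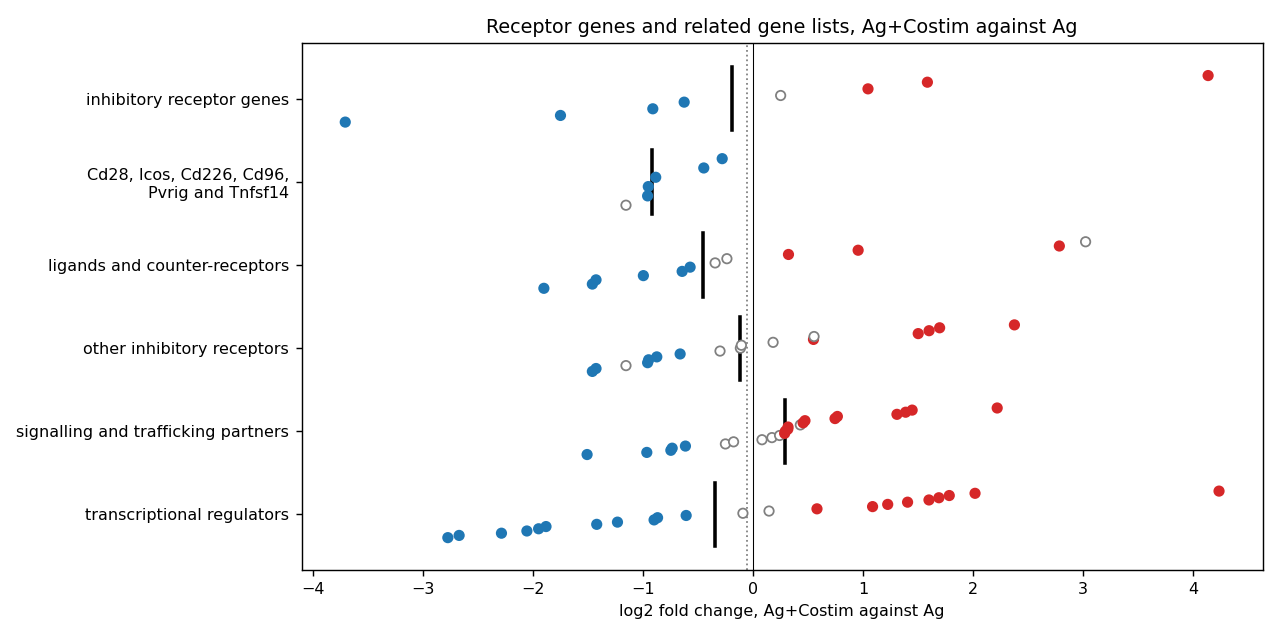
Log2 fold change in Ag+Costim against Ag for the 8 genes and 5 lists of related genes. Each point is a gene, red where called higher, blue where called lower and open where not called. Thick lines are list medians and the dotted line is the median of all genes tested, -0.05. The list of Cd28, Icos, Cd226, Cd96, Pvrig and Tnfsf14 lies to the left, with a median of -0.92, and the other lists hold genes on both sides of 0.

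The genes whose levels followed each receptor gene most closely were found by Pearson's r of log2 CPM over the 12 libraries, among 9253 genes with a mean log2 CPM above 3. The libraries fall into 3 groups, so that r mainly reflects the group levels, and it is given as a description. Pdcd1 was closest to Litaf, Slamf1 and Bcl2a1d (r = 0.997, 0.990 and 0.990). Ctla4 was closest to Ctse, Myb and Lpxn (0.985, 0.984 and 0.984) and Cd200 to Smap1, Slamf6 and Coa4 (0.987, 0.987 and 0.983). Lag3 was closest to Stx11, Ccdc50 and Sapcd2 (0.985, 0.980 and 0.980) and Tigit to Gnpda1, Ube2l3 and Eif2d (0.987, 0.984 and 0.981). Havcr2 was closest to Anln, Ddias and Dbf4 (0.996, 0.995 and 0.994). Cd160 was closest to Mrps6, Zcchc17 and Lpxn (0.976, 0.976 and 0.976) and Btla to Traf5 (0.978), with Taf1b also among its 3 closest (0.975). Lpxn was the only gene named for 2 of the 8, Ctla4 and Cd160, which both peaked in Ag.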

How the data were processed

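RNA-seq of purified CD8+ T cells was analysed for 12 libraries in the 3 groups that the sample titles give. The authors aligned single reads of 100 bases to mm10 with HISAT2 2.1.0 and quantified them with StringTie 2.1.0 (versions from the submitters' processing notes). The deposited counts per gene and per transcript are StringTie values derived from coverage, not normalized. FPKM per transcript was also deposited, from the same StringTie run, and Psi, a fraction, was deposited as 1 value per group from Whippet. The deposited sheet of the sequencing core lists reads, percent aligned and input. The authors' Psi differences, probability and other score columns of the Whippet table were not used.

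Of 81881 entries of the gene table, 55536 carry an Ensembl identifier, and all matched GENCODE vM21. The other 26345, unannotated, held 0.0508% to 0.121% of the counts and were left out. FPKM entries carry no transcript identifier and were matched to transcripts of the same gene by the FPKM that counts, length and library total predict. Group differences in counts were tested by edgeR 4.0.16 under R 4.3.3 (TMM scaling, filterByExpr, robust quasi-likelihood test, 1 term per group over all 12 libraries, two-sided, Benjamini-Hochberg adjustment over 18817 genes or 50792 transcripts, threshold 0.05). All 8 genes passed the filter. SE is the log2 fold change divided by the root of F, and intervals are at 95%. CPM values use TMM library sizes, and those of markers and overlapping genes use total counts. Shares of counts were compared with exact permutation tests over all arrangements of the libraries, and scipy 1.17.1 gave their Benjamini-Hochberg adjustment. FPKM was tested on log2 scales with limma 3.58.1 and counts also with DESeq2 1.42.0. The scripts were tested on simulated data.

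The members and gene lists were chosen with earlier results of these data known. Named genes are the 8 members, and for each list and comparison the 3 largest rises and 3 largest falls among called genes. For likeness, they are the 3 genes of highest r with a prior count of 2 and a mean log2 CPM above 3. Floors of 3 counts cover counting error only. Alternatives were 2 other scalings, no filter, no robust option, a replicate block, the 2 groups alone, each library left out, DESeq2, log2(FPKM + 1), log2(FPKM + 0.1) without a filter, a transcript length trend, and shares of FPKM. Values of some genes are not reported here.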

Additional observations from a re-analysis of the deposited data

Results flagged for a closer look

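Among 26 groups of 5 libraries examined (the levels of the 8 genes and the shares of leading transcripts in Ag and Ag+Costim), 3 held a library far from the others of its group, where chance flags about 1 group in 20. Lag3 was at 45.6 CPM in Ag+Costim 4, beside 32.2 to 35.7 CPM in the other 4 libraries of the group. Btla was at 52.4 CPM in the same library, beside 43.6 to 45.3 CPM. Btla-202 held 90.9% of Btla counts in Ag+Costim 2, beside 95.1% to 96.3% in the others. Ag+Costim 4 also held the highest Ctla4, 66.0 CPM, and the lowest Havcr2, 48.5 CPM, of its group, and its proliferation markers summed to 2180 CPM, the lowest of its group. Its sums of CD8 T cell and myeloid markers, 7673 and 154 CPM, were the highest of its group. So was its sum of NK cell markers, 329 CPM, of which 321 CPM were of Gzma, a gene of cytotoxic T cells too. The part of these in the values was not tested.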

How the results depend on the processing

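At the level of genes, all 8 were called in Ag against Naive and 7 in Ag+Costim against Ag under every alternative run, each library left out included (8 to 8 and 7 to 7). In Ag+Costim against Naive 6 to 7 were called, with Cd200 lost without Naive 1 (log2 fold change 1.47) and on the scales log2(FPKM + 1) and log2(FPKM + 0.1) (0.73 and 0.80). The uncalled value of Btla there turned negative with upper-quartile scaling (-0.011) and on both FPKM scales (-0.10 and -0.10). The cause was not tested. The uncalled value of Pdcd1 in Ag+Costim against Ag ran from 0.06 to 0.38 over the 22 alternatives. Called transcripts of the 8 genes numbered 8 to 13, 7 to 10 and 6 to 8 in the 3 comparisons with a library left out. The share of Cd200-202 differed by 10.8 to 13.5 points between Ag+Costim and Ag with a library left out. Without Ag+Costim 2 (11.4 points) the groups still did not overlap. The adjusted exact permutation p of this share, from fewer arrangements, was then 0.0794. With shares of FPKM it differed by 25.7 points. The shares of Btla, Cd160, Ctla4 and Lag3 differed by -1.38 to -0.02, -2.46 to -0.95, 0.26 to 0.88 and 0.27 to 0.47 points with a library left out.

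Libraries with the same number in Ag and Ag+Costim correlated in their deviations from the group means by 0.0159 to 0.0951, and 3 of 5 Ag libraries were closest to their own number. The labels do not say whether a shared number marks a pair, and these low values cannot decide it. With the replicate block the calls over all genes went from 8792 to 7915, from 9985 to 9736 and from 9844 to 9078 in the 3 comparisons, and the counts of called members were 8, 7 and 7 as without it. With 2 Naive libraries and 0 to 59 Naive counts for Lag3, Havcr2, Tigit and Ctla4, depth limits how well their rise above Naive is measured.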
